A study of Mus musculus with 6 samples.

Results

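Endocannabinoids are lipid messengers that a neuron makes on demand and that act on neighboring synapses. The 2 best known are 2-arachidonoylglycerol, cut from diacylglycerol by diacylglycerol lipases, and anandamide, an N-acylethanolamine released from N-acyl phosphatidylethanolamine. Both bind the CB1 receptor on axon terminals, where it holds back transmitter release, and serine hydrolases break them down. In the hippocampus CB1 is densest on terminals of inhibitory neurons that contain cholecystokinin, and the glutamatergic inputs of mossy cells to granule cells also carry it.

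The expression of 8 genes of this system was described in the microdissected granule cell layer of the DG. Dagla, Daglb, Napepld and Plaat3 (formerly Pla2g16) belong to synthesis, Mgll, Abhd6 and Faah to breakdown, and Cnr1 encodes the CB1 receptor. They were chosen by name with earlier results of these arrays known, among them the large increase of Plaat3. All 8 of 8 were measured, out of 19938 genes tested. The rule took the probe set of highest mean over the 6 arrays for each gene, but each of the 8 genes had 1 probe set, so that no value entered this choice.

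The granule cell layer was cut out by laser capture microdissection from cresyl violet-stained cryosections, and RNA was hybridized to 1-color Affymetrix whole-transcript arrays, 3 for Bcl11b/Ctip2 mutants and 3 for controls. The mutants came from mice with Bcl11b flox/flox alleles crossed with the tetO-Cre and CaMKIIα-tTA lines, in which a forebrain neuron promoter drives the transactivator for Cre. For the controls of this line, the sources used here do not give the alleles. All mice, mutants and controls, had doxycycline in the drinking water throughout embryogenesis and until 2 months of age, and were taken 4 weeks after its removal. The arrays carry a separate number each in their titles, but no source used here says whether an array holds 1 animal or several. The p-values thus reflect the variation among these 6 arrays. Levels were deposited on the log2 scale after RMA, and their medians over the tested genes lay between 7.07 and 7.08 in mutants and between 7.02 and 7.03 in controls. In such tissue fewer cells of a type and less RNA per cell cannot be told apart.

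Bcl11b itself had log2 levels of 9.03, 8.68 and 8.82 in mutants 1, 2 and 3, against 10.56, 10.40 and 10.30 in controls 1, 2 and 3. It was lower in every mutant array, and the change of -1.58 on the log2 scale (SE 0.099) had an adjusted p = 2.56e-05 from limma. The place of its probes relative to the deleted part is unknown here. Prox1, which defines granule cells, lay between 11.57 and 11.65 in mutants and between 11.45 and 11.81 in controls, while the array medians lay between 6.29 and 6.36. Of 12 markers of granule cells 7 fell and 2 rose in mutants, with log2 changes of -3.29 for C1ql2, -0.69 for Stxbp6 and 1.13 for Tdo2. C1ql2 was picked by the study on these samples, and the study proposes that Bcl11b binds its promoter region. Dsp, also in the list, is called a direct target there. The fall of these genes is thus no measure of the number of granule cells. Of 10 markers of CA pyramidal cells 1 was higher (Wfs1 at 0.40) and 4 lower (Fibcd1 at -0.94 and Amigo2 at -0.68 among them), of 6 endothelial markers 1 was higher (Flt1 at 0.44) and 0 lower, with 1 lower at an unadjusted p under 0.05, and of 7 oligodendrocyte markers 0 passed with limma, with 0 higher and 2 lower at an unadjusted p under 0.05. Their part in the results was not tested. Of the 16 markers of all cell types that passed and were named by rule, 11 lost the call with the methods' t-test. Without at least 1 of the arrays, 5 lost it. The 5 that kept it in both were C1ql2, Stxbp6, Tdo2, Ajap1 and Fibcd1. Over all genes 15.2% passed the test at an adjusted p under 0.05, 9.23% as higher and 5.93% as lower in mutants. The share of all genes at an unadjusted p under 0.05 was not counted with limma, so list counts at that threshold are descriptions only.

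Of the 8 endocannabinoid genes, 3 changed in the granule cell layer of Bcl11b/Ctip2 mutants, of which Plaat3 and Daglb belong to synthesis and Mgll to breakdown. Plaat3 and Mgll were higher and Daglb was lower, and Dagla, Napepld, Abhd6, Faah and Cnr1 did not pass the test. The 2 higher and 1 lower gene stand beside the shares of 9.23% and 5.93% over all genes. Those shares include dim genes, while none of the 8 had a mean level over the 6 arrays below that of the median gene. For Plaat3 this rests on the mutants, since its control mean of 6.97 is below the median level of 7.06. The 8 were also picked with results known, so nothing is read from this count. The median log2 change over the 8 genes was 0.066, and -0.0027 over all genes tested. The groups did not overlap for 5 of the 8 genes, against 31.6% of all genes.

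**Figure D1:**
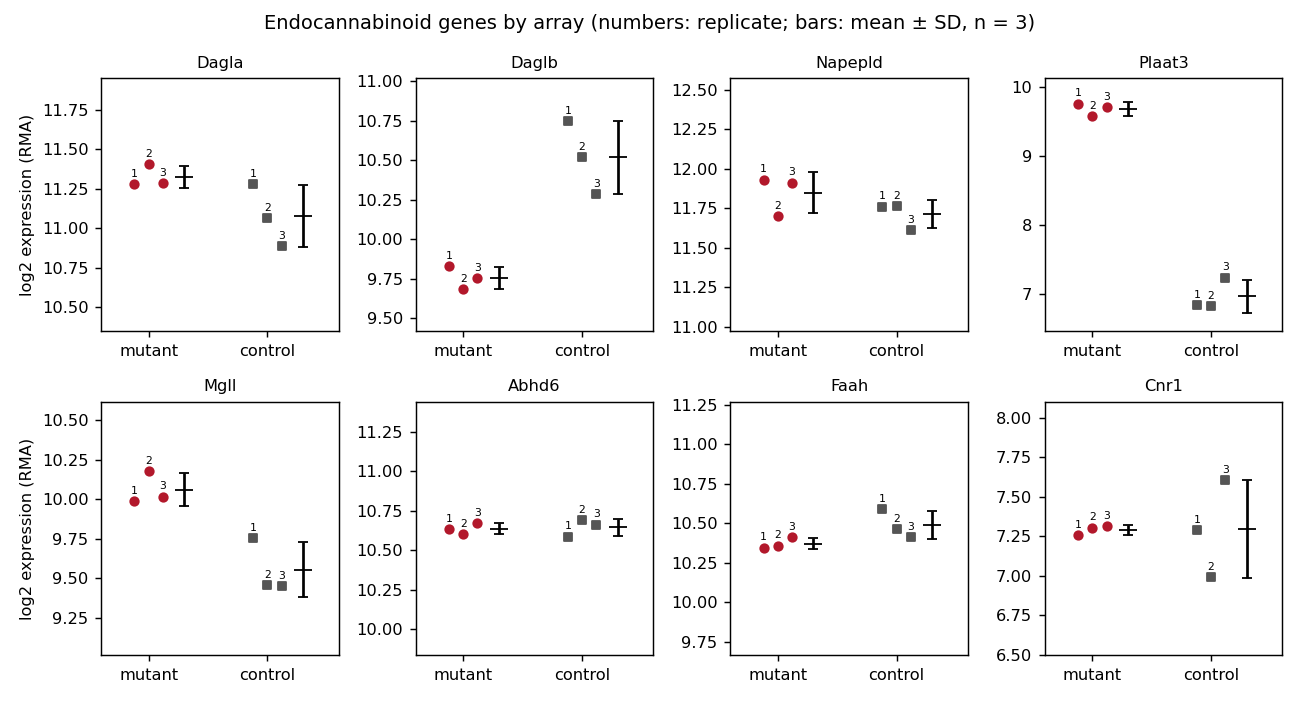
Log2 expression (vertical axis, RMA) of the 8 endocannabinoid genes in each array, with mutants on the left and controls on the right of each panel. Dots and squares are single arrays with their replicate number, bars give mean and SD (n = 3 per group), and the panels differ in their axis range. Plaat3 lies near 9.68 in mutants and 6.97 in controls, Daglb is the gene whose controls all lie above the mutants by the widest gap, and Cnr1 has mutants within the spread of the controls.

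Synthesis of 2-arachidonoylglycerol rests on 2 related lipases, of which Daglb was lower in mutants and Dagla did not pass the test. Daglb (probe set 10527213) encodes diacylglycerol lipase beta, which is known as the main form in macrophages and microglia and is also found in neurons. Its log2 level was 9.83, 9.69 and 9.75 in mutants 1, 2 and 3, against 10.75, 10.52 and 10.29 in controls 1, 2 and 3. Every mutant lay below every control, and the controls were more spread than the mutants. Mutants minus controls gave -0.76 on the log2 scale (SE 0.11, adjusted p = 0.00170 from limma), so that mutants held 0.590 times the control level. With the methods' t-test the adjusted p was 0.0693.

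Dagla (probe set 10465943) encodes diacylglycerol lipase alpha, which makes most of the 2-arachidonoylglycerol that acts at synapses of the adult brain and sits in dendritic spines. Its log2 level was 11.28, 11.41 and 11.29 in mutants 1, 2 and 3, against 11.28, 11.06 and 10.89 in controls 1, 2 and 3. Mutant 1 and control 1 were nearly equal, and the remaining controls lay below all mutants. The log2 change was 0.25 (95% interval 0.034 to 0.46), which did not pass the test over all genes (adjusted p = 0.124 from limma). Without control 1 it was 0.35 and passed (adjusted p = 0.00783 from limma), and without control 3 it was 0.15 and did not (adjusted p = 0.296 from limma).

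Within each array, the log2 level of Dagla minus that of Daglb was 1.45, 1.72 and 1.53 in mutants 1, 2 and 3, against 0.53, 0.54 and 0.60 in controls 1, 2 and 3. These differences hold probe effects and are no ratio of transcripts, but their shift between groups is the difference of the changes of both genes. It was 1.01 on the log2 scale, higher in 3 of 3 mutant arrays than in any control array. The exact permutation test (two-sided) gave p = 0.1, the smallest that 3 arrays against 3 allow, and 0.1 after adjustment over 3 such comparisons.

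Markers of microglia are given beside Daglb. Of 7 markers measured, 0 were higher and 1 was lower with limma (Tmem119 at -0.32), and all 7 had a change below 0, with a median of -0.26. At an unadjusted p under 0.05, 0 were higher and 2 lower. The mean log2 level over the list was 6.89, 7.02 and 6.87 in mutants 1, 2 and 3, against 6.94, 7.19 and 7.37 in controls 1, 2 and 3. Among controls, Daglb was highest in control 1 and this mean in control 3, and nothing is read from the order of 3 arrays. The part of microglia in the level of Daglb was not tested.

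Plaat3 (probe set 10461093) had the largest change of the 8 genes and the 6th largest increase of all 19938. It encodes a phospholipase A of adipocytes that also moves acyl chains between phospholipids in vitro, which yields the N-acyl phosphatidylethanolamine from which N-acylethanolamines are made. Its log2 level was 9.76, 9.57 and 9.71 in mutants 1, 2 and 3, against 6.84, 6.83 and 7.24 in controls 1, 2 and 3. All mutants lay far above all controls, and the highest control was control 3. The increase was 2.71 on the log2 scale (SE 0.11, adjusted p = 2.65e-06 from limma), a 6.53-fold higher level in mutants. This increase was known when the gene was chosen and is given as a description. The control mean of 6.97 is below the median level of all genes (7.06). Without detection calls, the size of the increase is not exact.

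Napepld (probe set 10528332), the phospholipase D that releases N-acylethanolamines and that is found in axons of granule cells, moved little. It had log2 levels of 11.93, 11.70 and 11.91 in mutants 1, 2 and 3, against 11.76, 11.77 and 11.61 in controls 1, 2 and 3. The groups overlapped, since mutant 2 lay between the controls. The log2 change was 0.14 (95% interval -0.041 to 0.31, adjusted p = 0.318 from limma). The changes of Plaat3 and Napepld differed by 2.57 on the log2 scale, which is a description, since the increase of Plaat3 was known.

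In the order of genes in GRCm38.p6, the nearest tested neighbors of Plaat3 are 2700081O15Rik, Rtn3 and Atl3 on 1 side, and Lgals12, Plaat5 and Slc22a19 on the other. They were named for their place and not by the rule for named genes. Lgals12, a galectin of fat cells and the direct neighbor, had log2 levels of 6.17, 5.84 and 5.97 in mutants 1, 2 and 3, against 5.31, 5.65 and 5.46 in controls 1, 2 and 3. Its groups did not overlap, at levels under the array medians, and the log2 change was 0.52 (SE 0.10, adjusted p = 0.0106 from limma). The 5 other neighbors did not pass the test, with log2 changes between 0.020 for Rtn3 and 0.17 for 2700081O15Rik. Plaat5, which in rodents encodes a calcium-independent N-acyltransferase, was at 5.42, 5.36 and 5.67 in mutants and 5.33, 5.39 and 5.43 in controls, and Plaat1 of the same family had a log2 change of 0.066 (adjusted p = 0.634 from limma).

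The 3 genes whose log2 levels over the 6 arrays were most like those of Plaat3 were Hcrtr1, Tmem141 and Vangl1, each with a Pearson correlation of 0.999. They were sought among 329 genes with an SD over the arrays of at least 0.5. Their log2 changes were 0.97, 1.14 and 1.29. Hcrtr1, an orexin receptor, had 7.61, 7.57 and 7.55 in mutants 1, 2 and 3, against 6.56, 6.54 and 6.72 in controls 1, 2 and 3, and like Plaat3 it was highest among controls in control 3. The 6 points fall into 2 groups, and 154 of the 329 genes had a correlation of at least 0.95 with Plaat3.

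Breakdown of 2-arachidonoylglycerol is shared by Mgll and Abhd6, and here too only the first passed the test. Mgll (probe set 10539894) encodes monoacylglycerol lipase, which ends the signal in axon terminals and astrocytes and frees arachidonic acid. Its log2 level was 9.99, 10.18 and 10.02 in mutants 1, 2 and 3, against 9.76, 9.46 and 9.45 in controls 1, 2 and 3. Every mutant lay above every control, and control 1 was the one nearest to the mutants. Mgll rose by 0.51 on the log2 scale (SE 0.093, adjusted p = 0.00682 from limma), a 1.42-fold higher level. With the methods' t-test the adjusted p was 0.105.

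Abhd6 (probe set 10412607), a hydrolase of the same lipid on the postsynaptic side, had log2 levels of 10.63, 10.60 and 10.67 in mutants 1, 2 and 3, against 10.59, 10.69 and 10.66 in controls 1, 2 and 3. The groups overlapped. The log2 change was -0.010 (95% interval -0.13 to 0.11, adjusted p = 0.938 from limma), an interval that does not reach the 0.51 of Mgll. The changes of Mgll and Abhd6 differed by 0.52 on the log2 scale within arrays, with each of 3 mutants above each control (exact permutation test, two-sided, p = 0.1, the smallest possible, and 0.1 after adjustment over 3 comparisons).

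Since Mgll is also made by astrocytes, their markers are given beside it. Of 8 astrocyte markers 2 were higher and 0 lower with limma, where also 0 were lower at an unadjusted p under 0.05, and the median log2 change was 0.13. Of the 8, 7 had a change above 0. Gfap rose by 0.54 (adjusted p = 0.0130 from limma) and the glutamate transporter Slc1a2 by 0.32 (adjusted p = 0.00845 from limma). Both lost the call with the methods' t-test (adjusted p = 0.147 and 0.0659). The mean log2 level over the list was 8.72, 8.93 and 8.73 in mutants 1, 2 and 3, against 8.47, 8.62 and 8.76 in controls 1, 2 and 3. Among controls this mean was highest in control 3, and Mgll was nearly equal in controls 2 and 3 (9.46 and 9.45). Nothing is read from the order of 3 arrays. The part of astrocytes in the level of Mgll was not tested.

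Faah (probe set 10515220), the hydrolase that breaks down anandamide, did not pass the test. It had log2 levels of 10.34, 10.36 and 10.41 in mutants 1, 2 and 3, against 10.59, 10.46 and 10.41 in controls 1, 2 and 3. All mutants lay below all controls, but mutant 3 and control 3 differed by less than 0.01. For Faah the log2 change came to -0.12 (95% interval -0.25 to 0.023, adjusted p = 0.273 from limma).

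**Figure D2:**
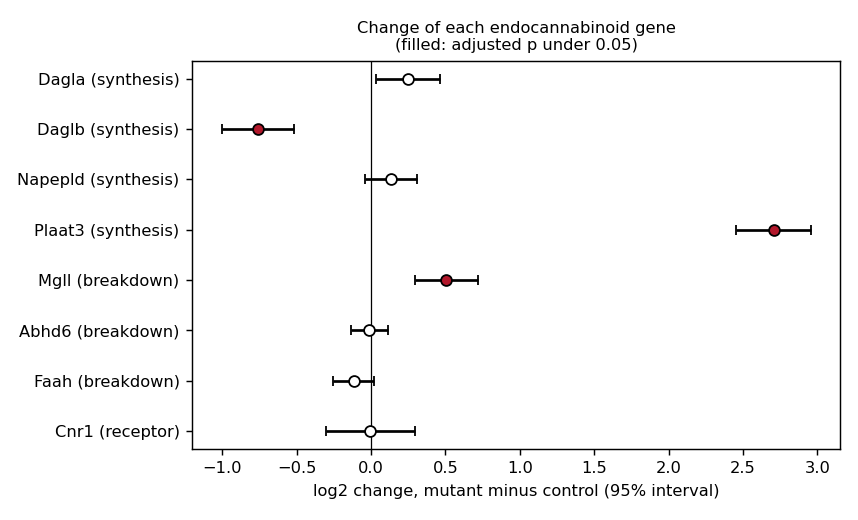
Log2 change of each endocannabinoid gene, mutant minus control, on the horizontal axis with 95% intervals from limma (n = 3 per group), ordered by role from synthesis to receptor. Filled circles passed an adjusted p under 0.05, namely Plaat3 at 2.71, Mgll at 0.51 and Daglb at -0.76, while the interval of Dagla, an open circle, ends just above 0 at 0.034.

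Cnr1 (probe set 10503902), which encodes the CB1 receptor, had nearly equal mean levels in both groups, with more widely spread controls. Its log2 level was 7.25, 7.30 and 7.31 in mutants 1, 2 and 3, against 7.29, 6.99 and 7.61 in controls 1, 2 and 3. The mutants lay within the range of the controls, with an SD of 0.032 in mutants and 0.31 in controls (n = 3 each). Controls also had the larger SD in each other member except Napepld, such as Daglb (0.23 against 0.071) and Plaat3 (0.23 against 0.096). The difference in spread was not tested. The log2 change was -0.0035 (95% interval -0.30 to 0.29, adjusted p = 0.991 from limma), an interval that holds changes of either sign. Without control 3 the log2 change was 0.15 (adjusted p = 0.354 from limma), and without control 2 it was -0.16 (adjusted p = 0.419 from limma).

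Inhibitory neurons lie in and along the granule cell layer, and their defining markers are given beside Cnr1. Gad2 had log2 levels of 9.08, 8.92 and 8.87 in mutants 1, 2 and 3, against 9.06, 8.52 and 9.11 in controls 1, 2 and 3. The vesicular GABA transporter Slc32a1 had 7.09, 7.35 and 7.11 in mutants 1, 2 and 3, against 7.15, 7.02 and 7.23 in controls 1, 2 and 3. In Cnr1, control 2 was the lowest and control 3 the highest of the controls. The same order was found in 8 of 18 markers of inhibitory neurons, Gad1, Gad2 and Slc32a1 among them, and not in the other 10, Cck, Sst and Npy among them. How many of all genes show this order was not counted, so nothing is read from the 8. Gad2 and Slc32a1 did not pass the test between groups (adjusted p = 0.857 and 0.777 from limma), while Gad1 was lower in mutants (adjusted p = 0.0192 from limma). The part of inhibitory neurons in the level of Cnr1 was not tested.

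Of 8 markers of cholecystokinin-type inhibitory neurons, 1 was higher and 0 lower with limma, where also 0 were lower at an unadjusted p under 0.05. The 1 was Cck, which granule cells and other principal cells can also transcribe. Its log2 level was 12.16, 12.42 and 12.28 in mutants 1, 2 and 3, against 9.94, 10.88 and 11.35 in controls 1, 2 and 3, a log2 change of 1.56 (SE 0.29, adjusted p = 0.00710 from limma). All mutants lay above all controls, and the controls were widely spread (SD 0.72, against 0.13 in mutants, n = 3 each). Vip, Htr3a, Slc17a8, Tac2, Npas1, Adarb2 and Sncg had log2 changes between -0.048 and 0.16. Of 10 other markers of inhibitory neurons 0 were higher and 2 lower, with Gad1, which granule cells also transcribe, at -0.27 (adjusted p = 0.0192 from limma) and Npy at -0.58 (adjusted p = 0.0104 from limma). At an unadjusted p under 0.05, 0 of the 10 were higher and 3 lower. Of 7 markers of mossy cells 3 were higher and 0 lower with limma, where also 0 were lower at an unadjusted p under 0.05. The 3 were Ajap1 at 0.34, Ociad2 at 0.54 and Calcrl at 0.40 on the log2 scale. The other 4 lay between -0.33 for Calb2 (adjusted p = 0.376 from limma) and 0.038 for Drd2, and the median over the 7 was 0.038. The call of Calcrl was lost when any 1 of the mutants or control 3 was left out (adjusted p between 0.0613 and 0.106 from limma).

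**Figure D3:**
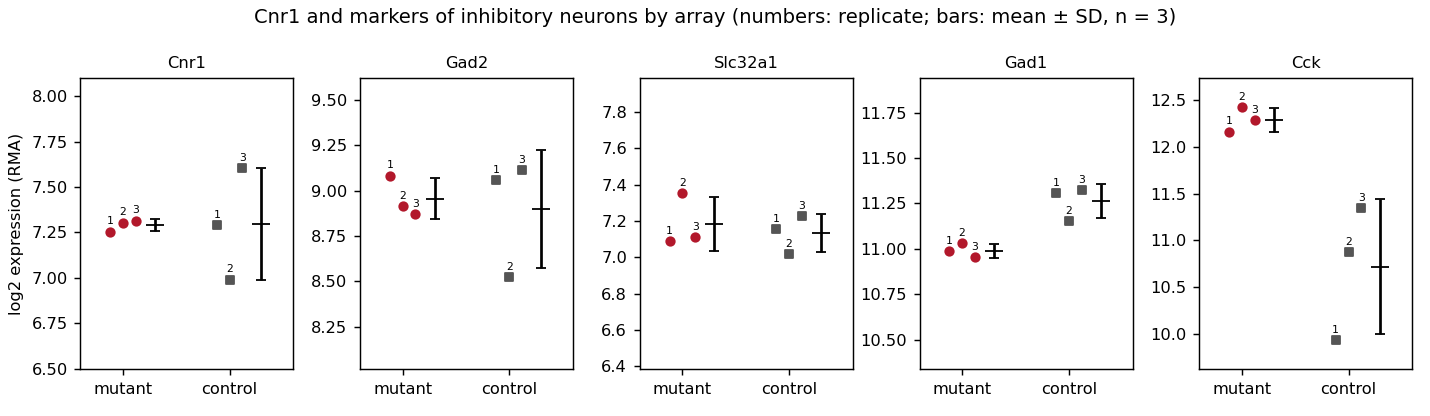
Log2 expression (vertical axis, RMA) of Cnr1 and of 4 markers of inhibitory neurons in each array, mutants left and controls right, with replicate numbers and bars for mean and SD (n = 3 per group). The mutants of Cnr1, Gad2 and Slc32a1 overlap with their controls, and Gad1 is lower in all mutants than in all controls. Cck is higher in all mutants than in all controls, of which control 1 is the lowest.

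Around the 8 genes, 82 further genes of endocannabinoid metabolism, its substrates and the CB1 pathway were listed, of which 77 were measured and 5 were not analysed here. In mutants 11 of the 77 rose, 10 fell and 56 showed no change past the threshold, which is 27.3% changed beside 15.2% of all genes. The 15.2% counts dim genes too. With the filter on dim genes, 2749 of 9969 genes passed, and 19 pathway genes. How many of the 77 were kept by this filter was not counted. The 27.3% is thus not shown to exceed the share among genes of like level. The median log2 change over the 77 was -0.017, and -0.0027 over all genes. Ptgs2 among the 77 was picked by the study on these samples. The count was 13 without mutant 1 and 11 without mutant 2, where the count over all genes fell from 3023 to 1886 and 1954. Of the 19 that passed and were named by rule, 11 lost the call with the methods' t-test and 9 without at least 1 of the arrays. The 7 that kept it in both were Ptgs2, Pparg, Arrb1, Fabp5, Dgkd, Dgkz and Gnai2. Genes named here that did not pass the test were chosen after their values were seen. The share changed was 9.09% for other synthesis, 12.5% for other lipid receptors and 14.3% for phospholipases A2, each below the 15.2% of all genes. It was 25% for other breakdown and for Gq receptors and phospholipase C, 37.5% for diacylglycerol kinases, 42.9% for carriers and CB1 partners and 66.7% for CB1 effectors.

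The substrate side of 2-arachidonoylglycerol included genes in both directions. Receptors coupled to Gq activate phospholipase C beta, which makes the diacylglycerol that the lipases cut. Of 12 such genes, with Homer scaffolds, 2 were higher and 1 was lower. The Gq subunit Gnaq rose by 0.31 on the log2 scale (adjusted p = 0.0134 from limma) and Homer2, a scaffold of group I glutamate receptors, by 0.44 (adjusted p = 0.0174 from limma). The receptor Grm5 fell by 0.23 (adjusted p = 0.0167 from limma). Plcb1, the phospholipase C form of forebrain neurons, had a log2 change of 0.038.

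Diacylglycerol kinases remove the same diacylglycerol by phosphorylation. Of 8 measured, 3 were lower and 0 higher with limma, where also 0 were higher at an unadjusted p under 0.05. Dgki was at 9.67, 9.69 and 9.68 in mutants 1, 2 and 3, against 10.13, 10.46 and 10.41 in controls 1, 2 and 3, a log2 change of -0.65 (adjusted p = 0.00113 from limma). Dgkz had a log2 change of -0.56 (adjusted p = 0.00118 from limma) and Dgkd of -0.52 (adjusted p = 6.06e-04 from limma). The groups did not overlap for any of these 3 genes. For Dgkz, the mean of both probe sets gave -0.26.

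Past the hydrolases, arachidonic acid is the substrate of cyclooxygenases, and the inducible form Ptgs2 also oxidizes 2-arachidonoylglycerol itself. Ptgs2 had log2 levels of 8.23, 7.92 and 7.84 in mutants 1, 2 and 3, against 11.52, 11.51 and 11.20 in controls 1, 2 and 3, far below the controls in each mutant (log2 change -3.42, adjusted p = 1.07e-06 from limma). Of the 8 genes of other breakdown, Abhd2, a hydrolase of 2-arachidonoylglycerol in sperm, was also lower, with -0.31 (adjusted p = 0.0294 from limma). Abhd12, which hydrolyzes the same lipid in the brain, had a log2 change of 0.054 and Naaa, the acid amidase for N-acylethanolamines, of 0.28 (adjusted p = 0.102 from limma).

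Of 11 genes of other routes of synthesis 1 was lower and 0 higher with limma. It was Inpp5d, an inositol phosphatase of blood cells and microglia, with -0.28 (adjusted p = 0.0145 from limma). At an unadjusted p under 0.05, Gdpd3 was the 1 higher gene, at 0.40 (adjusted p = 0.0871 from limma). Of 14 phospholipases A2, to whose activity Plaat3 is related, 1 was higher and 1 lower. Pla2g6, the calcium-independent form, rose by 0.38 (adjusted p = 0.0140 from limma), and the secreted Pla2g2d fell by 0.75 (adjusted p = 9.27e-04 from limma).

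Among carriers and partners of CB1, 3 of 7 genes were higher and 0 lower with limma, where also 0 were lower at an unadjusted p under 0.05. Arrb1, which encodes a beta-arrestin that uncouples receptors from G proteins, was at 11.76, 11.86 and 11.73 in mutants 1, 2 and 3, against 10.87, 10.68 and 10.72 in controls 1, 2 and 3. Its groups were far apart (log2 change 1.03, adjusted p = 3.08e-05 from limma), while Arrb2 had -0.12 (adjusted p = 0.260 from limma). Fabp5, a fatty acid-binding protein that carries endocannabinoids in the cytosol, rose by 0.44 (adjusted p = 0.00211 from limma) and Fabp3 by 0.44 (adjusted p = 0.0390 from limma). The call of Fabp3 was lost when any of 5 of the 6 arrays was left out (adjusted p between 0.0880 and 0.144 from limma), with control 1 as the exception, and with median centring.

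CB1 couples to Gi/o proteins, which open GIRK channels and close presynaptic calcium channels. Of 9 such genes 5 were higher and 1 was lower, beside 9.23% and 5.93% of all genes, dim ones included. Shares by direction among genes of like level were not counted. Gnai2 rose by 0.68 on the log2 scale (adjusted p = 8.46e-05 from limma), Gnao1 by 0.36 (adjusted p = 0.0116 from limma), and the calcium channel subunits Cacna1a and Cacna1b by 0.47 and 0.25 (adjusted p = 0.00986 and 0.0355 from limma). The call of Cacna1b was lost when any 1 of the mutants or control 3 was left out (adjusted p between 0.0731 and 0.135 from limma), and with median centring. Gnai1 also rose, by 0.22 (adjusted p = 0.0374 from limma), and the 1 lower gene was Kcnj3, a GIRK channel subunit, at -0.23 (adjusted p = 0.0495 from limma). Both lie outside the rule for named genes and were named after their values were seen. The median over the 9 genes was 0.25. Of 8 other lipid receptors 1 was lower, the nuclear receptor Pparg with -0.52 (adjusted p = 4.29e-04 from limma), at levels under the median of all genes. Cnr2, the CB2 receptor of immune cells, had a log2 change of 0.040 (adjusted p = 0.765 from limma).

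**Figure D4:**
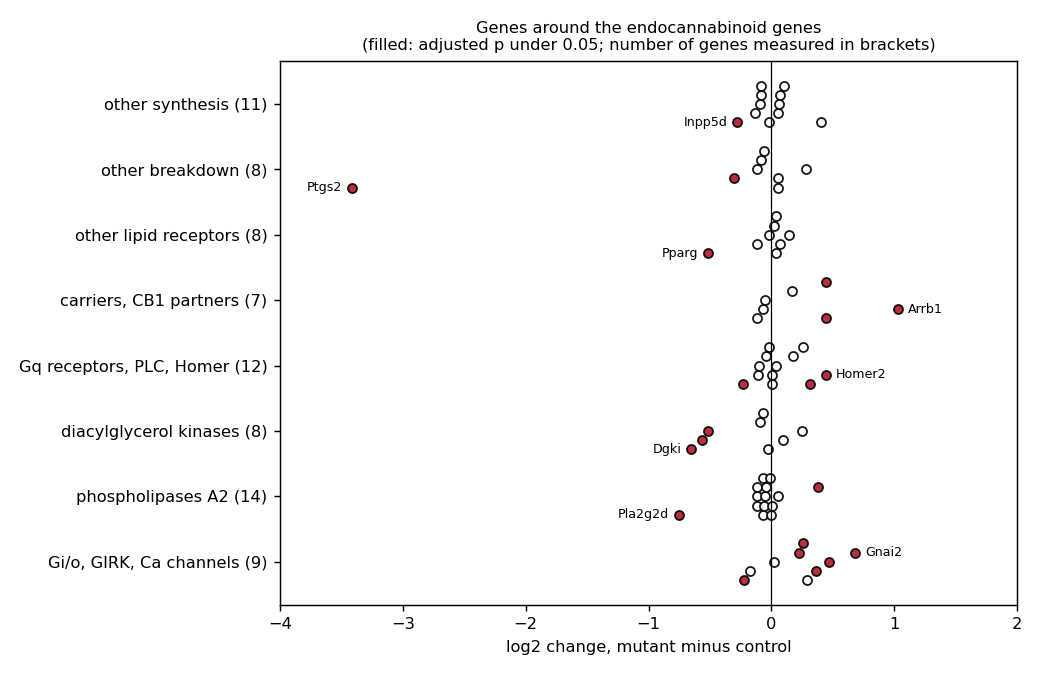
Log2 change, mutant minus control, on the horizontal axis for 77 genes around the endocannabinoid genes, 1 circle per gene in 8 lists with the number measured in brackets, and vertical position within a list without meaning. Filled circles passed an adjusted p under 0.05, and the one of largest size in each list is named. The 3 diacylglycerol kinases that passed lie left of 0 and the 3 carriers and CB1 partners that passed right of 0, while Ptgs2 lies far to the left at -3.42.

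The promoters of the 3 changed genes were inspected because they are the genes whose transcripts moved. Windows from 250 bases before to 50 bases after a RefSeq start were taken in GRCm38.p6 for 7 of the 8 genes (12 windows). They were searched on both strands for TGGGC, named in the study as a putative Bcl11b binding site. On the opposite strand it reads GCCCA, and no other motif was searched. The motif was in 7 of the 12 windows and in 56.9% of 32851 windows of all genes. Some windows of a gene overlap, and windows 1 and 2 of Abhd6 share the same match, so the 12 are not independent. The first window of each changed gene follows, 5′ to 3′ on the strand of the gene, with the motif in capitals.
Plaat3, chr19:7557209-7557508, plus strand: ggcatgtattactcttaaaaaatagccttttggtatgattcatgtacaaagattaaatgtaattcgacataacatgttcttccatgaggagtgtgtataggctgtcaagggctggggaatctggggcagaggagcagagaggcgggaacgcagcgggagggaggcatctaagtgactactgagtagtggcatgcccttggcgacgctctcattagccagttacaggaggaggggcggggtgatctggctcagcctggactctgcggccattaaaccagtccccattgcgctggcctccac
Mgll, chr6:88724162-88724461, plus strand: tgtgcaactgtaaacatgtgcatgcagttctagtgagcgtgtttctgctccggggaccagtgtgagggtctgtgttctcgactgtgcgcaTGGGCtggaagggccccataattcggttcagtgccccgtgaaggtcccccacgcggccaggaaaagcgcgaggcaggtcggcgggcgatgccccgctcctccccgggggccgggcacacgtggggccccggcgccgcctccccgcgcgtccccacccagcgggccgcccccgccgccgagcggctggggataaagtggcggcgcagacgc
Daglb, chr5:143464243-143464542, plus strand: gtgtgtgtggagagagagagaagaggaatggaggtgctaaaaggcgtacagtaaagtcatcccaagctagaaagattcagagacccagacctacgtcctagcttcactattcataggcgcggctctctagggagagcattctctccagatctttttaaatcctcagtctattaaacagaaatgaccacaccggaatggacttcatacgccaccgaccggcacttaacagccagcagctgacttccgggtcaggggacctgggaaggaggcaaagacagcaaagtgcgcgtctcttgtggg
The first Mgll window held 1 match and its second window, not shown, held 0. The windows of Plaat3 and Daglb held 0, which says only that these letters are not in these windows. Among genes that did not pass the test, the first window of Cnr1 held 3 matches, that of Faah 3, and those of Napepld and Abhd6 1 each. G and C made up 52.0% of the first Plaat3 window, 51.0% of the Daglb window and 70.0% of the first Mgll window, against a median of 52.7% over all windows.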

How the data were processed

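Expression was measured in the microdissected granule cell layer of the DG on 6 one-color Affymetrix arrays, 3 of mutants and 3 of controls, grouped by their titles. The authors deposited log2 expression values, made with RMA in Affymetrix Expression Console per the submitters' processing notes. RMA scales arrays to each other, so that a change in total RNA is not measured. The deposited arrays still differed in their medians over all probe sets (6.29 to 6.36). Of 35556 probe sets, 21789 were paired with 1 gene in the platform annotation, 1621 with several and 12146 were not listed. For each of 19938 genes, the probe set of highest mean over the 6 arrays was kept. Detection was not measured, and precision is limited by having 3 arrays per group.

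The test was a linear model per gene with moderated variances (limma 3.58.1, R 4.3.3) and no covariate. P-values were adjusted after Benjamini-Hochberg for 19938 genes, and those under 0.05 were called. The procedure was tested on simulated data. Differences between members within arrays were compared with an exact permutation test. The members and gene lists were chosen with earlier results of these data known. Named are the 8 members, Bcl11b, up to 4 genes of smallest p among those past the threshold of each of 8 pathway lists and up to 3 of each of 9 marker lists, Gad1, Gad2, Slc32a1 and Cck, and the 3 genes most like a member that passed with a log2 change of at least 1. Gnai1, Kcnj3, the neighbors of Plaat3 and genes that did not pass the test were named outside this rule. Alternatives were the methods' t-test, a mean-variance trend, array weights, a filter on dim genes, other probe set rules, other normalizations, a replicate block, stricter thresholds and leaving out each array. Promoter windows were taken from RefSeq (GRCm38.p6), and no source used here gives the build behind the deposited files.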

Additional observations from a re-analysis of the deposited data

How the results depend on the processing

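Plaat3 kept its direction and its call in all 18 alternatives, with log2 changes between 2.64 and 2.84. With the methods' t-test and Benjamini-Hochberg adjustment, 1 of the 8 members and 8 of the 77 pathway genes passed, against 3 and 21 with limma. Daglb (-0.76, adjusted p = 0.0693) and Mgll (0.51, adjusted p = 0.105) were lost there, and over all genes the count was 1141, against 3023 with limma. Mgll at 0.51 is also under a fold of 1.5. Of the pathway genes 10 passed at an adjusted p under 0.01 and 5 with a fold of at least 1.5, where 1554 and 709 of all genes passed. With array weights, Dagla passed (0.26, adjusted p = 0.0148 from limma), Cnr1 turned to 0.19, and 5527 genes passed in all.

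When each array was left out in turn, 3 to 4 members and 11 to 24 pathway genes passed, with 1886 to 4487 of all genes. The log2 change lay between 0.15 and 0.35 for Dagla, which passed without control 1. It lay between -0.16 and 0.15 for Cnr1, which turned to 0.015 without mutant 1 and 0.15 without control 3. It lay between -0.040 and 0.011 for Abhd6, which turned to 0.0066 without mutant 2 and 0.011 without control 2. Gad2 lay between -0.13 and 0.17 and turned to -0.0054 without mutant 1 and -0.13 without control 2. Slc32a1 lay between -0.034 and 0.098 and turned to -0.034 without mutant 2 and -0.0068 without control 2. Where not shown by the alternative itself, the cause was not tested. For arrays of the same replicate number, the deviations from the group means had correlations of 0.16, -0.043 and 0.13. These were not compared with pairs of unlike number, so they do not decide whether arrays of the same number belong together. With a replicate block 3 members, 21 pathway genes and 3176 of all genes passed.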
